A study of Mus musculus with 2 samples.

Results

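Immune checkpoint and costimulation genes were followed as a set of 10: the receptor genes Pdcd1, Ctla4, Icos, Lag3 and Havcr2, and the ligand genes Cd274, Pdcd1lg2, Cd80, Cd86 and Icosl. They were taken by symbol from the 32285 genes in the files, and all 10 were found once each. The data are 2 droplet single-cell RNA libraries made from leukocytes of the mouse aorta that carry CD45, the surface protein shared by white blood cells. The treated-labelled library comes from mice given ZnDPA@siIRF5, a preparation with a small interfering RNA against the transcription factor IRF5, and the control-labelled library from a control group. The labels give neither strain, diet, sex and age of the mice nor the number pooled, and they do not say what the control mice received. The labels name a droplet kit for library construction and also describe lysis of the leukocytes in TRIzol, and how the steps follow each other is not stated there. With 1 library per group, the group, the mice and the library cannot be told apart, no test can be made, and every interval below covers counting error only.

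A T cell needs a second signal besides antigen, and these genes carry it or hold it back. CD80 and CD86 on antigen-presenting cells bind CD28, which activates, and CTLA-4, which takes the same ligands away and inhibits. ICOS is a CD28 relative induced on activated T cells and binds ICOS ligand, the product of Icosl. PD-1, the product of Pdcd1, is an inhibitory receptor of activated and chronically stimulated T cells, and its ligands PD-L1 and PD-L2 come from Cd274 and Pdcd1lg2. LAG-3, which binds MHC class II, and TIM-3, the product of Havcr2, mark exhausted T cells together with PD-1, and TIM-3 is also carried by dendritic cells and other myeloid cells. In atherosclerosis, costimulation and checkpoint signals are known to shape the T cell response in the arterial wall.

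In GRCm38 coordinates (GENCODE annotation), Ctla4 (chromosome 1, 60887000 to 60915832, plus strand) and Icos (60977927 to 61000320, plus strand) are neighbours 62.1 kb apart, and Pdcd1 lies on the minus strand of the same chromosome from 94038305 to 94052553. Cd274 (chromosome 19, 29367455 to 29388095) and Pdcd1lg2 (29410919 to 29471161) follow each other on the plus strand with 22.8 kb between them. Cd86 (minus strand, 36603869 to 36666081) and Cd80 (plus strand, 38455561 to 38496335) are on chromosome 16. Lag3 (chromosome 6, 124904361 to 124911705, minus strand), Icosl (chromosome 10, 78069302 to 78083913, plus strand) and Havcr2 (chromosome 11, 46454935 to 46481255, plus strand) have no other of the 10 genes on their chromosome.

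The 250 bases before the start site are shown for the PD-1 ligand pair, neighbours with unlike patterns over cell types, and for Cd80, which was lower together with Cd274 in 1 dendritic cell type of the treated-labelled library. They are RefSeq windows of build GRCm38.p6, plus strand, and RefSeq windows were found for 7 of the 10 genes (Cd86, Icos and Lag3 are named only). Capitals mark a kappaB motif in the Pdcd1lg2 window and an AP-1 motif, TGANTCA, in the Cd80 window. The windows are chr19:29367188-29367437, chr19:29410669-29410918 and chr16:38458683-38458932, and the Cd80 window precedes a RefSeq start that lies inside the GENCODE gene.
Cd274: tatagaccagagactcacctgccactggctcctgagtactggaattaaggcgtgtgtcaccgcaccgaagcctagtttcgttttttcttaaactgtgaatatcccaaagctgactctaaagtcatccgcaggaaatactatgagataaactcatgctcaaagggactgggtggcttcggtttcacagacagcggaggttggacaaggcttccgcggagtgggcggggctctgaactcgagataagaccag
Pdcd1lg2: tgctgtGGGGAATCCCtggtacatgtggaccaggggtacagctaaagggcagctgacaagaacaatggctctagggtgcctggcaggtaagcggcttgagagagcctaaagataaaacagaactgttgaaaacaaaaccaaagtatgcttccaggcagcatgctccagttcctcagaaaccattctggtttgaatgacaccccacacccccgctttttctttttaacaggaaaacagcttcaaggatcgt
Cd80: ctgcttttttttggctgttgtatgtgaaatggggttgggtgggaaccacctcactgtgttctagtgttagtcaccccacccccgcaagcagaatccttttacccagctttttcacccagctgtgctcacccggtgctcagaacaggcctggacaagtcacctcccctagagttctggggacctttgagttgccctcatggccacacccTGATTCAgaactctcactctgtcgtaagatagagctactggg
On either strand, a kappaB motif was found in 3.90% of all 32841 RefSeq windows of this length, AP-1 in 6.75%, the GAS motif TTCNNNGAA in 7.02% and the interferon-stimulated response element (ISRE) in 2.98%. Of the 7 windows, Pdcd1lg2 held the kappaB motif, matched on both strands. Cd80 and Havcr2 matched the AP-1 pattern TGANTCA, in which N is any base, as TGATTCA. No window held the letters of the other 2 motifs, which says nothing of more distant sites.

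After the filters, 11805 cells of the treated-labelled library and 11523 of the control-labelled library were kept, with medians of 4543 UMIs (treated) and 4629 UMIs (control) (unique molecular identifiers, 1 per captured transcript molecule). The 2 libraries share 45 barcodes. Immunoglobulin genes took 5.73% of UMIs in the treated-labelled library and 15.4% in the control-labelled library. Cells were grouped into 15 types with at least 100 cells in each library, named from marker lists with the 10 genes left out of the clustering, and Ptprc, which encodes CD45, was detected in each. Irf5, the target of the siRNA, was not 1.5-fold lower in the treated-labelled library in any of these types with at least 20 UMIs of it: macrophage-like cells held 130.7 CPM there and 116.9 CPM in the control-labelled library. Irf5 was higher in the treated-labelled library in neutrophil-like cells, with 41.6 CPM (treated) and 23.7 CPM (control), a log2 ratio of 0.81 (0.46 to 1.17), and in cycling T-like cells, with 15.9 CPM (treated) and 5.06 CPM (control), a log2 ratio of 1.66 (0.59 to 2.80). CPM (counts per 1000000) scales the UMIs of a gene to the total UMIs of the same cell type in the same library.

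**Figure D1:**
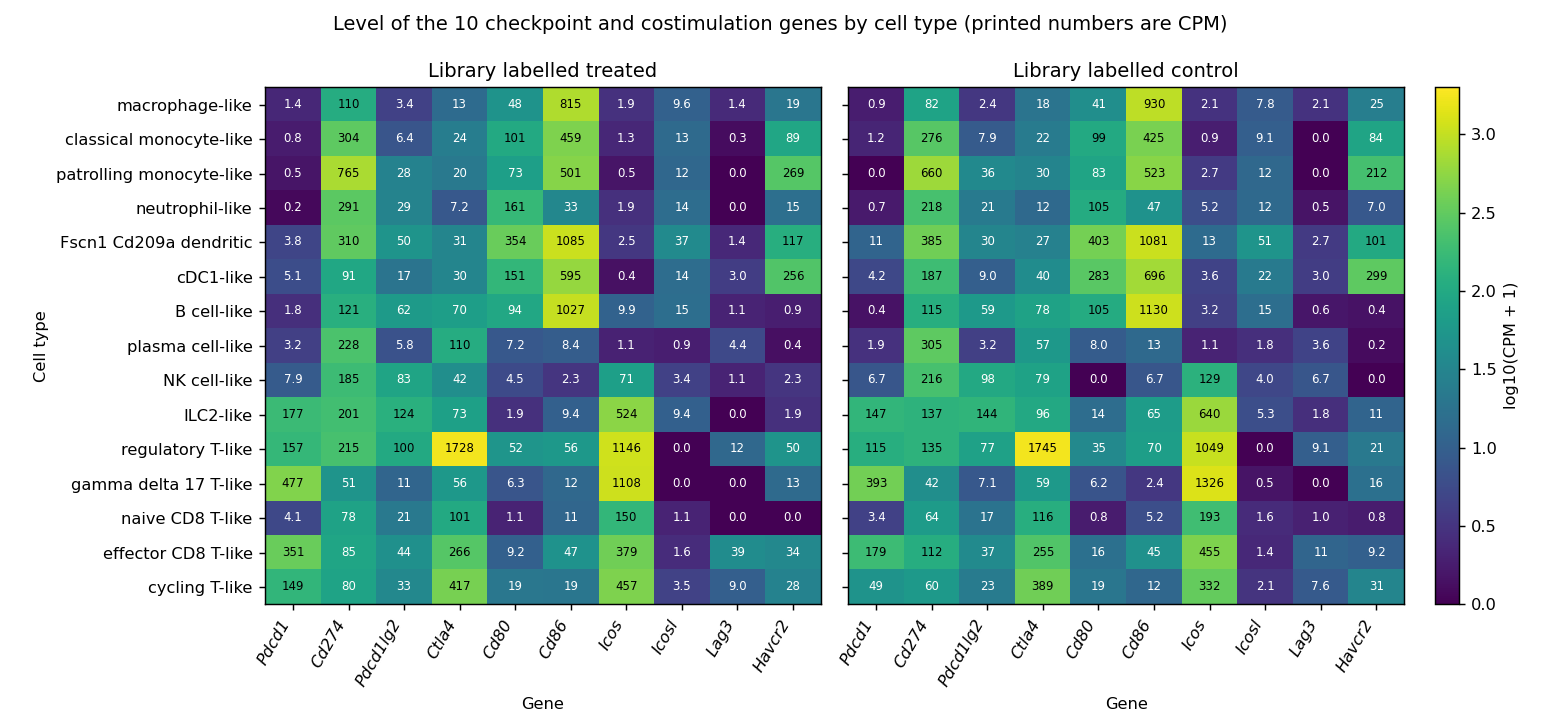
Level of each gene (columns) in each cell type (rows) in the treated-labelled library (left) and the control-labelled library (right); printed numbers are CPM and colour is log10(CPM + 1). Ctla4 and Icos were high in T cells, Cd86 in dendritic, B and macrophage-like cells, and Cd274 had at least 42.3 CPM in each of the 15 types.

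Pdcd1, the gene of the inhibitory receptor PD-1, was concentrated in a few T cell groups. It reached 477 CPM (95% interval 443 to 512) in gamma delta 17 T-like cells of the treated-labelled library and 393 CPM (367 to 421) in those of the control-labelled library. These cells carry Trdc, the constant region of the delta chain, and Il23r, and resemble the tissue T cells that make IL-17. They held 30.9% (treated) and 39.4% (control) of the Pdcd1 UMIs of kept cells. A group of effector CD8 T-like cells, sub-cluster 12, reached 590 CPM (treated) and 415 CPM (control), and its interval overlapped that of the gamma delta 17 T-like cells in the control-labelled library. Outside CD8 T cells, ILC2-like cells, a kind of innate lymphoid cell marked by Gata3 and Il5, had 177 CPM (treated) and 147 CPM (control), and regulatory T-like cells had 157 CPM (treated) and 115 CPM (control).

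Effector CD8 T-like cells, which carry Cd8a and Gzmk, held more Pdcd1 in the treated-labelled library. The level was 351 CPM from 648 UMIs in the treated-labelled library and 179 CPM from 388 UMIs in the control-labelled library, a log2 ratio of 0.97 (0.79 to 1.16). A Pdcd1 UMI was found in 54.9% (treated) and 35.5% (control) of the cells, whose median depth was 3886 UMIs (treated) and 3436 UMIs (control). Thinned to 2000 UMIs per cell, with 26 (treated) and 37 (control) shallower cells left out, the shares were 39.9% (treated) and 26.1% (control), while B cell-like cells, which have little Pdcd1, gave 0.122% (treated) and 0.0694% (control).

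The mix of sub-clusters within these cells differed between the libraries. Sub-cluster 12, led by Osgin1, Sema6d and Epha3, was 188 of 437 effector cells in the treated-labelled library and 55 of 581 in the control-labelled library. The other, sub-cluster 10, led by Ifitm1, Gzmk and Eomes, had 203 CPM (treated) against 159 CPM (control) of Pdcd1, a log2 ratio of 0.35 (0.10 to 0.60). With equal sub-cluster weights for both libraries, the log2 ratio of the whole was 0.43, under the 1.5-fold limit used below. Pdcd1 was not used to draw the sub-clusters.

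Lag3 and Havcr2, the genes of LAG-3 and TIM-3, were also higher in effector CD8 T-like cells of the treated-labelled library. Lag3 had 39.0 CPM from 72 UMIs in the treated-labelled library and 11.1 CPM from 24 UMIs in the control-labelled library, a log2 ratio of 1.82 (1.13 to 2.55). Havcr2 had 33.6 CPM from 62 UMIs (treated) and 9.25 CPM from 20 UMIs (control), a log2 ratio of 1.86 (1.12 to 2.67). Most of these UMIs in the treated-labelled library lay in sub-cluster 12, which held 54 of Lag3 and 42 of Havcr2, against 1 UMI of Lag3 and 2 UMIs of Havcr2 in the 55 such cells of the control-labelled library. In sub-cluster 10, Lag3 had 15.8 CPM (treated) and 11.6 CPM (control) and Havcr2 17.6 CPM (treated) and 9.05 CPM (control), both differences within counting error. With equal weights the ratios stayed at 1.57 for Lag3 and 1.52 for Havcr2.

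Lag3 and Havcr2 were found more often in effector cells with a Pdcd1 UMI than in those without, by a few cells in the control-labelled library. The cells pool sub-clusters 12 and 10, and in the treated-labelled library sub-cluster 12 had more of each of these genes. The part of this mix in the shares was not tested. Of 240 effector CD8 T-like cells with a Pdcd1 UMI in the treated-labelled library, 18.8% also had Lag3, against 5.08% of 197 cells without Pdcd1. In the control-labelled library these shares were 5.34% of 206 cells and 2.67% of 375 cells. Havcr2 was found in 11.3% of cells with Pdcd1 and 5.08% of those without in the treated-labelled library, and in 3.40% and 2.13% in the control-labelled library. After thinning to 2000 UMIs, Lag3 was in 10.98% of cells with Pdcd1 and 6.07% without in the treated-labelled library, and in 2.82% and 2.49% in the control-labelled library. For Havcr2 the thinned shares were 6.71% and 4.45% in the treated-labelled library and 2.82% and 1.24% in the control-labelled library, where 4 and 5 cells carried it.

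Among the other T cell groups, the largest Pdcd1 ratio was that of cycling T-like cells. These dividing cells, marked by Mki67, held 149 CPM from 215 UMIs in the treated-labelled library and 48.9 CPM from 116 UMIs in the control-labelled library, a log2 ratio of 1.61 (1.27 to 1.95). They are 126 cells (treated) and 183 cells (control), of which 19 (treated) and 8 (control) form a sub-cluster with high Trdc. Without those, in sub-cluster 4, the levels were 128 CPM (treated) and 43.0 CPM (control). Zbtb16-bearing T cells (sub-cluster 13, led by Plekhg1, Lmo4 and Zbtb16) had 130.5 CPM (treated) and 57.6 CPM (control), and CD4 T cells led by Hs6st3 and Sostdc1 (sub-cluster 8) 180 CPM (treated) and 122 CPM (control). Gamma delta 17 T-like cells differed by a log2 ratio of 0.28 (0.13 to 0.42). In T cells as a whole Pdcd1 stood at 173 CPM in the treated-labelled library and 106 CPM in the control-labelled library.

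**Figure D2:**
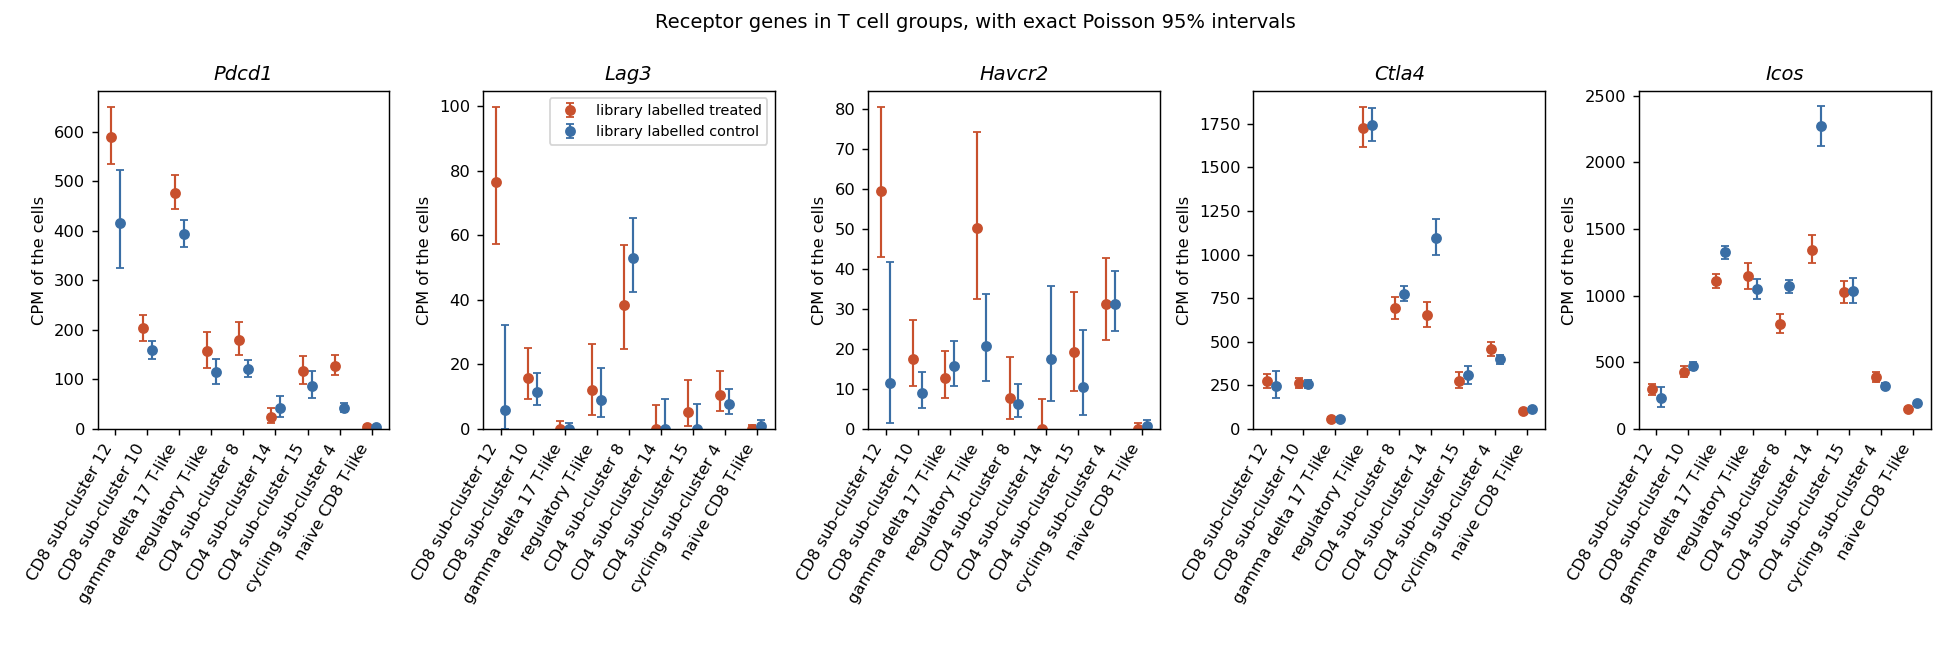
Level in CPM (vertical axes, linear) of the 5 receptor genes in 9 T cell groups (horizontal axes), with points for the treated-labelled library (red) and the control-labelled library (blue) and bars for exact Poisson 95% intervals. Pdcd1, Lag3 and Havcr2 stood highest in CD8 sub-cluster 12 of the treated-labelled library, at 590 CPM, 76.5 CPM and 59.5 CPM, and Ctla4 in regulatory T-like cells of both libraries.

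Lag3 was sparse, with 289 UMIs (treated) and 322 UMIs (control) over all cell types together in barcodes that passed the quality limits. Effector CD8 T-like cells held 27.3% (treated) and 8.08% (control) of those in kept cells. Plasmacytoid dendritic (pDC-like) cells had 48.3 CPM from 23 UMIs in 67 cells of the treated-labelled library and 65.6 CPM from 21 UMIs in 41 cells of the control-labelled library. CD4 T cells of sub-cluster 8 had 38.5 CPM (treated) and 53.0 CPM (control). No Lag3 UMI was found in gamma delta 17 T-like cells of either library, where 3 UMIs would make 1.90 CPM (treated) and 1.43 CPM (control). Plasma cell-like cells had 4.39 CPM (treated) and 3.58 CPM (control).

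Ctla4, the gene of the receptor that inhibits by binding CD80 and CD86, marked regulatory T-like cells in both libraries. These cells, which carry Foxp3, held 1728 CPM (1615 to 1848) in the treated-labelled library and 1745 CPM (1653 to 1841) in the control-labelled library, a log2 ratio of -0.01 (-0.14 to 0.11). A Ctla4 UMI was in 93.7% (treated) and 90.6% (control) of them. Thinned, the shares were 89.6% (treated) and 82.6% (control), against 1.24% (treated) and 2.02% (control) in neutrophil-like cells. Their level lay apart from that of every other group in both libraries.

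CD4 T cells led by Il17f, Il17a and Ccr6, sub-cluster 14, had 655 CPM in the treated-labelled library and 1095 CPM in the control-labelled library. This log2 ratio, -0.74 (-0.95 to -0.53), was the lowest among T cell groups that had 100 or more cells per library and 20 Ctla4 UMIs in 1 of them. In effector CD8 T-like cells the levels were 266 CPM (treated) and 255 CPM (control) and in cycling T-like cells 417 CPM (treated) and 389 CPM (control), within counting error in both. The Pdcd1 log2 ratios of these types were 0.97 and 1.61.

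Plasma cell-like cells, the antibody makers marked by Jchain, also held Ctla4 UMIs. The level was 109.7 CPM from 625 UMIs in the treated-labelled library and 56.7 CPM from 967 UMIs in the control-labelled library, a log2 ratio of 0.95 (0.80 to 1.10). It was higher in each of the 4 sub-clusters with at least 20 cells in both libraries, by 0.60 to 1.38 on the log2 scale. A UMI was in 55.1% (treated) and 41.7% (control) of cells at median depths of 17879 UMIs (treated) and 16928 UMIs (control), and thinned in 17.6% (treated) and 11.5% (control). In NK cell-like cells Ctla4 was lower in the treated-labelled library, with 41.9 CPM from 37 UMIs, against 79.5 CPM from 59 UMIs in the control-labelled library.

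Icos, the gene of the costimulatory receptor ICOS, was high in several T cell groups. The Zbtb16-bearing T cells led with 1781 CPM in the treated-labelled library and 2379 CPM in the control-labelled library, followed by the Il17a-bearing CD4 T cells with 1346 CPM (treated) and 2270 CPM (control). Gamma delta 17 T-like cells had 1108 CPM (treated) and 1326 CPM (control), regulatory T-like cells 1146 CPM (treated) and 1049 CPM (control), and ILC2-like cells 524 CPM (treated) and 640 CPM (control). The log2 ratio was -0.42 (-0.56 to -0.28) in the Zbtb16-bearing cells and -0.75 (-0.90 to -0.61) in the Il17a-bearing CD4 T cells. Patrolling monocyte-like cells, which should lack the gene, gave 1 UMI (treated) and 2 UMIs (control). Among regulatory T-like cells with Ctla4, Icos was found in 83.2% of 119 cells in the treated-labelled library and 84.9% of 192 cells in the control-labelled library, and after thinning in 71.8% (treated) and 80.3% (control).

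Havcr2 had its highest levels in myeloid cells. cDC1-like cells, dendritic cells known for cross-presentation and marked by Xcr1 and Clec9a, held 256 CPM in the treated-labelled library and 299 CPM in the control-labelled library. Patrolling monocyte-like cells, marked by Ace and Treml4, held 269 CPM (treated) and 212 CPM (control), and the intervals of these 2 types overlapped in the treated-labelled library. Dendritic cells led by Fscn1 and Cd209a followed with 117 CPM (treated) and 101 CPM (control). They include a sub-cluster with macrophage markers, led by C1qb, Chil3 and Thbs1, of 67 cells (treated) and 37 cells (control). Regulatory T-like cells had 50.2 CPM from 25 UMIs (treated) and 20.8 CPM from 16 UMIs (control), a log2 ratio of 1.27 (0.31 to 2.27). Over all barcodes that passed the quality limits, Havcr2 stood at 45.3 CPM (treated) and 21.4 CPM (control), while in macrophage-like, monocyte-like and both dendritic types it differed by less than 1.5-fold. Classical monocyte-like cells were 11.7% of the treated-labelled library and 4.08% of the control-labelled library, and patrolling monocyte-like cells 3.80% (treated) and 1.49% (control).

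Cd274, the gene of PD-L1, was found in each of the 15 types. Of the dendritic cells led by Fscn1 and Cd209a, a migratory DC-like sub-cluster of 43 cells (treated) and 35 cells (control) held 1030 CPM (934 to 1133) in the treated-labelled library and 873 CPM (773 to 982) in the control-labelled library. Patrolling monocyte-like cells followed with 765 CPM (treated) and 660 CPM (control), and classical monocyte-like cells, marked by Ly6c2 and Vcan, had 304 CPM (treated) and 276 CPM (control). The lowest level of the 15 types was that of gamma delta 17 T-like cells, 50.6 CPM (treated) and 42.3 CPM (control). Plasma cell-like cells held 228 CPM (treated) and 305 CPM (control), and gave 9.23% of Cd274 UMIs in the treated-labelled library and 35.9% in the control-labelled library.

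The PD-L1 gene was lower in cDC1-like cells and higher in inflammatory macrophage-like cells of the treated-labelled library. cDC1-like cells had 90.6 CPM from 214 UMIs in the treated-labelled library and 186.9 CPM from 312 UMIs in the control-labelled library, a log2 ratio of -1.05 (-1.30 to -0.79). Their cycling sub-cluster had 67.5 CPM (treated) and 187 CPM (control). The Cd274 intervals lay apart there and overlapped in each other cDC1-like sub-cluster. That led by March3 had 70.4 CPM (treated) and 78.8 CPM (control), and that led by Ifitm1 64.9 CPM (treated) and 52.2 CPM (control). In inflammatory macrophage-like cells, led by Ifi205, Ms4a4c and Ccl4, the levels were 163.8 CPM (treated) and 92.3 CPM (control), a log2 ratio of 0.83 (0.60 to 1.06). Resident macrophage-like cells differed within counting error, with 76.9 CPM (treated) and 73.5 CPM (control). At a lower level, Cd274 was also higher in the treated-labelled library in the macrophage-like sub-cluster led by Hspa1b and Hspa1a. That sub-cluster, of 366 cells (treated) and 181 cells (control), held 0.433% (treated) and 0.111% (control) of the Cd274 UMIs of kept cells. Macrophage-like cells as a whole, marked by C1qa and Mrc1, had 109.7 CPM (treated) and 81.5 CPM (control), a log2 ratio of 0.43 (0.29 to 0.57). Regulatory T-like cells had 215 CPM from 107 UMIs (treated) and 135 CPM from 104 UMIs (control), a log2 ratio of 0.67 (0.26 to 1.07).

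Cd80, the gene of a CD28 and CTLA-4 ligand, was, like Cd274, lower in cDC1-like cells of the treated-labelled library. Its level was 151 CPM from 357 UMIs in the treated-labelled library and 283 CPM from 472 UMIs in the control-labelled library, a log2 ratio of -0.90 (-1.11 to -0.70). A sub-cluster led by Mab21l3, Il12b and Ccl17 had the highest level of both genes among cDC1-like sub-clusters and was 25 of 191 cells in the treated-labelled library and 38 of 130 in the control-labelled library. In it Cd80 had 329 CPM (treated) and 589 CPM (control) and Cd274 had 277 CPM (treated) and 390 CPM (control). The Cd80 intervals lay apart in this sub-cluster and overlapped in each other cDC1-like sub-cluster. Only in that led by Hspa1b was Cd80 higher in the treated-labelled library, with 105 CPM (treated) and 49.2 CPM (control). With the same weights for all sub-clusters, the log2 ratios were -0.55 for Cd80 and -0.54 for Cd274, under the 1.5-fold limit. Of cDC1-like cells with Cd274, 72.1% of 61 cells in the treated-labelled library and 84.6% of 65 cells in the control-labelled library also had Cd80, and after thinning 39.1% of 23 cells (treated) and 58.6% of 29 cells (control).

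Neutrophil-like cells, marked by S100a8 and Csf3r, moved the other way for Cd80. They held 160.7 CPM from 942 UMIs in the treated-labelled library and 105.3 CPM from 422 UMIs in the control-labelled library, a log2 ratio of 0.61 (0.44 to 0.78). Given the same weights for all sub-clusters the ratio was 0.38. The dendritic cells led by Fscn1 and Cd209a had the highest Cd80 level of the 15 types, 354 CPM (treated) and 403 CPM (control). Of their sub-clusters, that led by Dscam and Adam23 was highest, with 554 CPM (treated) and 646 CPM (control). Their migratory DC-like sub-cluster had 505 CPM (treated) and 375 CPM (control). Among B cell-like cells, Cd80 had 212 CPM (treated) and 266 CPM (control) in sub-cluster 4 and 117 CPM (treated) and 142 CPM (control) in sub-cluster 2, while sub-cluster 0, led by Ighd, had 11.7 CPM (treated) and 16.1 CPM (control).

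Cd86, which encodes the second ligand of CD28 and CTLA-4, was close between the libraries in the types where it was high. The dendritic cells led by Fscn1 and Cd209a held 1085 CPM in the treated-labelled library and 1081 CPM in the control-labelled library, B cell-like cells 1027 CPM (treated) and 1130 CPM (control) and macrophage-like cells 815 CPM (treated) and 930 CPM (control). All 6 types with more than 400 CPM in both libraries had log2 ratios between -0.22 and 0.11. Resident macrophage-like cells had 842 CPM (treated) against 1125 CPM (control), a log2 ratio of -0.42 (-0.50 to -0.34). NK cell-like cells gave 2 UMIs (treated) and 5 UMIs (control).

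Pdcd1lg2, the gene of PD-L2, had a pattern unlike that of its neighbour. Its level in ILC2-like cells was 124 CPM from 66 UMIs in the treated-labelled library and 144 CPM from 82 UMIs in the control-labelled library. Regulatory T-like cells had 100.4 CPM (treated) and 76.8 CPM (control), NK cell-like cells 82.7 CPM (treated) and 98.3 CPM (control) and B cell-like cells 62.1 CPM (treated) and 58.9 CPM (control). At the top of this order, neighbouring types were not set apart by their intervals in both libraries. Macrophage-like cells had only 3.39 CPM (treated) and 2.45 CPM (control). Over the 15 types the Pearson r between Cd274 and Pdcd1lg2 was 0.15 on log2(CPM + 1), a description of types that share their libraries. The antisense gene A930007I19Rik overlaps the end of Pdcd1lg2 on the other strand, and the sources used here do not say whether strand was used in counting. It was highest in patrolling monocyte-like cells with 47.0 CPM (treated) and 45.6 CPM (control), and its r with Pdcd1lg2 was 0.12. The antisense gene AC119228.1, inside Cd274, had 105 UMIs (treated) and 91 UMIs (control).

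In the dendritic cells led by Fscn1 and Cd209a, Pdcd1lg2 was higher in the treated-labelled library, and the largest difference lay in 1 sub-cluster. The cells led by Fscn1 and Cd209a held 49.97 CPM of Pdcd1lg2 from 183 UMIs in the treated-labelled library and 30.4 CPM from 57 UMIs in the control-labelled library, a log2 ratio of 0.72 (0.28 to 1.17). In the migratory DC-like sub-cluster there were 65 UMIs in 43 cells (treated) and 11 UMIs in 35 cells (control), or 159 CPM (treated) and 34.7 CPM (control). The intervals overlapped in each other sub-cluster of these cells. That led by Dscam and Adam23 had 70.1 CPM (treated) and 46.1 CPM (control), and that led by C3 and Atf3 24.7 CPM (treated) and 22.1 CPM (control). Of these dendritic cells with a Cd274 UMI, 33.6% of 229 in the treated-labelled library and 24.1% of 133 in the control-labelled library also had Pdcd1lg2, against 4.55% (treated) and 6.59% (control) of those without Cd274. Thinned to 2000 UMIs, the shares with Cd274 were 14.6% (treated) and 8.75% (control), and those without were 3.55% (treated) and 2.94% (control). Cd274 itself had a log2 ratio of -0.31 (-0.45 to -0.18) in these cells. In them Fscn1 was at 249 CPM (treated) and 488 CPM (control) and Cd209a at 412 CPM (treated) and 270 CPM (control), and the part of this shift in the ratios was not tested. Equal weights for sub-clusters gave a log2 ratio of 0.89 for Pdcd1lg2, and cells with at most 1 UMI of other lineages gave 0.53.

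Icosl, the gene of the ICOS ligand, was sparse and highest in dendritic cells. The cells led by Fscn1 and Cd209a had 37.1 CPM in the treated-labelled library and 50.7 CPM in the control-labelled library, and their migratory DC-like sub-cluster 56.4 CPM (treated) and 56.7 CPM (control). cDC1-like cells had 13.96 CPM (treated) and 21.6 CPM (control) and B cell-like cells 14.5 CPM (treated) and 14.6 CPM (control). No Icosl UMI was found in regulatory T-like cells.

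**Figure D3:**
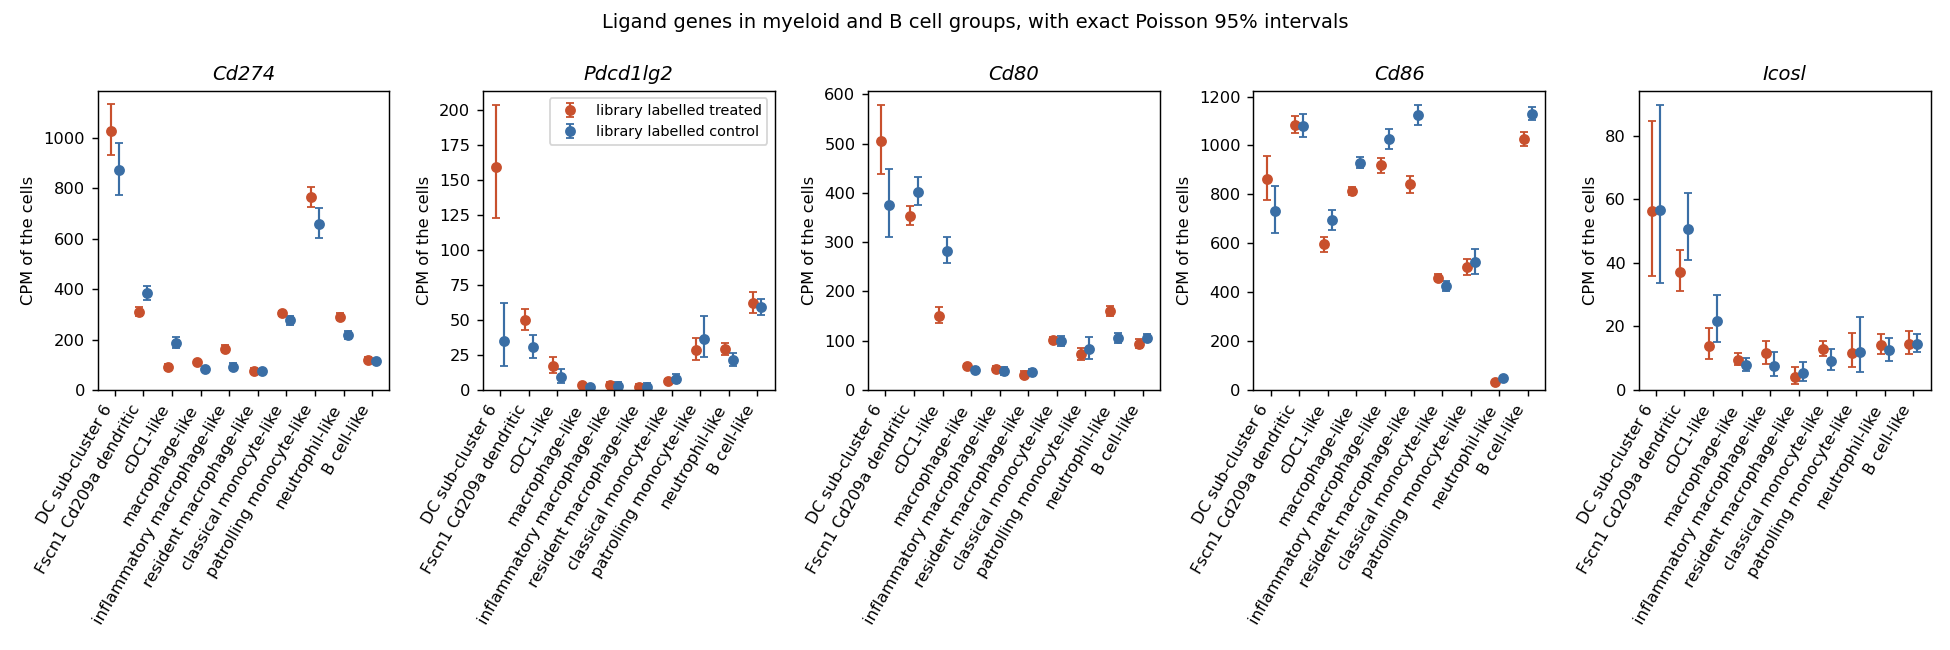
Level in CPM (vertical axes, linear) of the 5 ligand genes in 10 myeloid and B cell groups (horizontal axes), with points for the treated-labelled library (red) and the control-labelled library (blue) and bars for exact Poisson 95% intervals. In cDC1-like cells Cd274 and Cd80 were lower in the treated-labelled library, with 90.6 CPM (treated) against 186.9 CPM (control) and 151 CPM (treated) against 283 CPM (control), and Cd86 differed less, with 595 CPM (treated) against 696 CPM (control).

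Over all types, most measured levels of the 10 genes differed by less than 1.5-fold. A ratio was given where a type had 100 or more cells per library and the gene at least 20 UMIs in 1 of them, which 106 of 150 gene and type pairs met. Of these, 16 were at least 1.5-fold higher and 12 at least 1.5-fold lower in the treated-labelled library, against a background of 13.5% of 122543 pairs of all genes past that limit, 6.83% higher and 6.66% lower. The median log2 ratio was 0.03 for the 10 genes and 0.02 for all genes. A pair that met the limit only through its higher library was more likely to differ. Of the 28 pairs past 1.5-fold, 13 were under 20 CPM in both libraries, such as Icos in B cell-like cells with 9.92 CPM (treated) and 3.18 CPM (control), and 5 had intervals that hold 0.

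By type, effector CD8 T-like cells had 3 of 9 measured genes past 1.5-fold higher (Pdcd1, Lag3 and Havcr2) and 1 lower (Cd80), against a background of 11.6% of genes, 6.39% higher and 5.23% lower. cDC1-like cells had 3 of 7 lower (Cd274, Cd80 and Icosl) and 1 higher (Pdcd1lg2), against 12.6%, 8.43% higher and 4.15% lower. The Icosl call rested on 33 UMIs (treated) and 36 UMIs (control), its interval holds 0, and it stayed past 1.5-fold in 6 of 11 alternatives, with a log2 ratio of -0.14 with doublet calls kept. Macrophage-like cells had 0 of 8, against 10.1%, and classical and patrolling monocyte-like cells had 0 of 7 each, against 11.2% and 15.3%. In neutrophil-like cells, where 25.6% of genes were past 1.5-fold, 7.64% higher and 17.9% lower, 2 of 8 were higher (Cd80 and Havcr2) and 2 lower (Ctla4 and Icos). Plasma cell-like cells had 3 of 8 higher (Pdcd1, Pdcd1lg2 and Ctla4) and 1 lower (Icosl), against 14.6% of genes either way, and of these 4 genes only Ctla4 was above 20 CPM. NK cell-like cells had 2 of 4 lower (Ctla4 and Icos), against 15.7% either way and 8.57% lower. Regulatory T-like cells had 2 of 8 higher (Cd274 and Havcr2), against 15.2% either way and 5.33% higher. Cycling T-like cells had 2 of 8 higher (Pdcd1 and Cd86), against 14.1% either way and 8.44% higher. The dendritic cells led by Fscn1 and Cd209a had 1 of 9 higher (Pdcd1lg2) and 2 lower (Pdcd1 and Icos), against 15.3%, 9.44% higher and 5.9% lower. ILC2-like cells had 1 of 6 lower (Cd86), against 21.2% either way and 12.3% lower. B cell-like cells had 1 of 7 higher (Icos), against 8.95% either way and 4.01% higher. Naive CD8 T-like cells had 1 of 5 higher (Cd86), against 8.32% either way and 2.96% higher. Gamma delta 17 T-like cells had 0 of 5, against 10.9% either way.

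**Figure D4:**
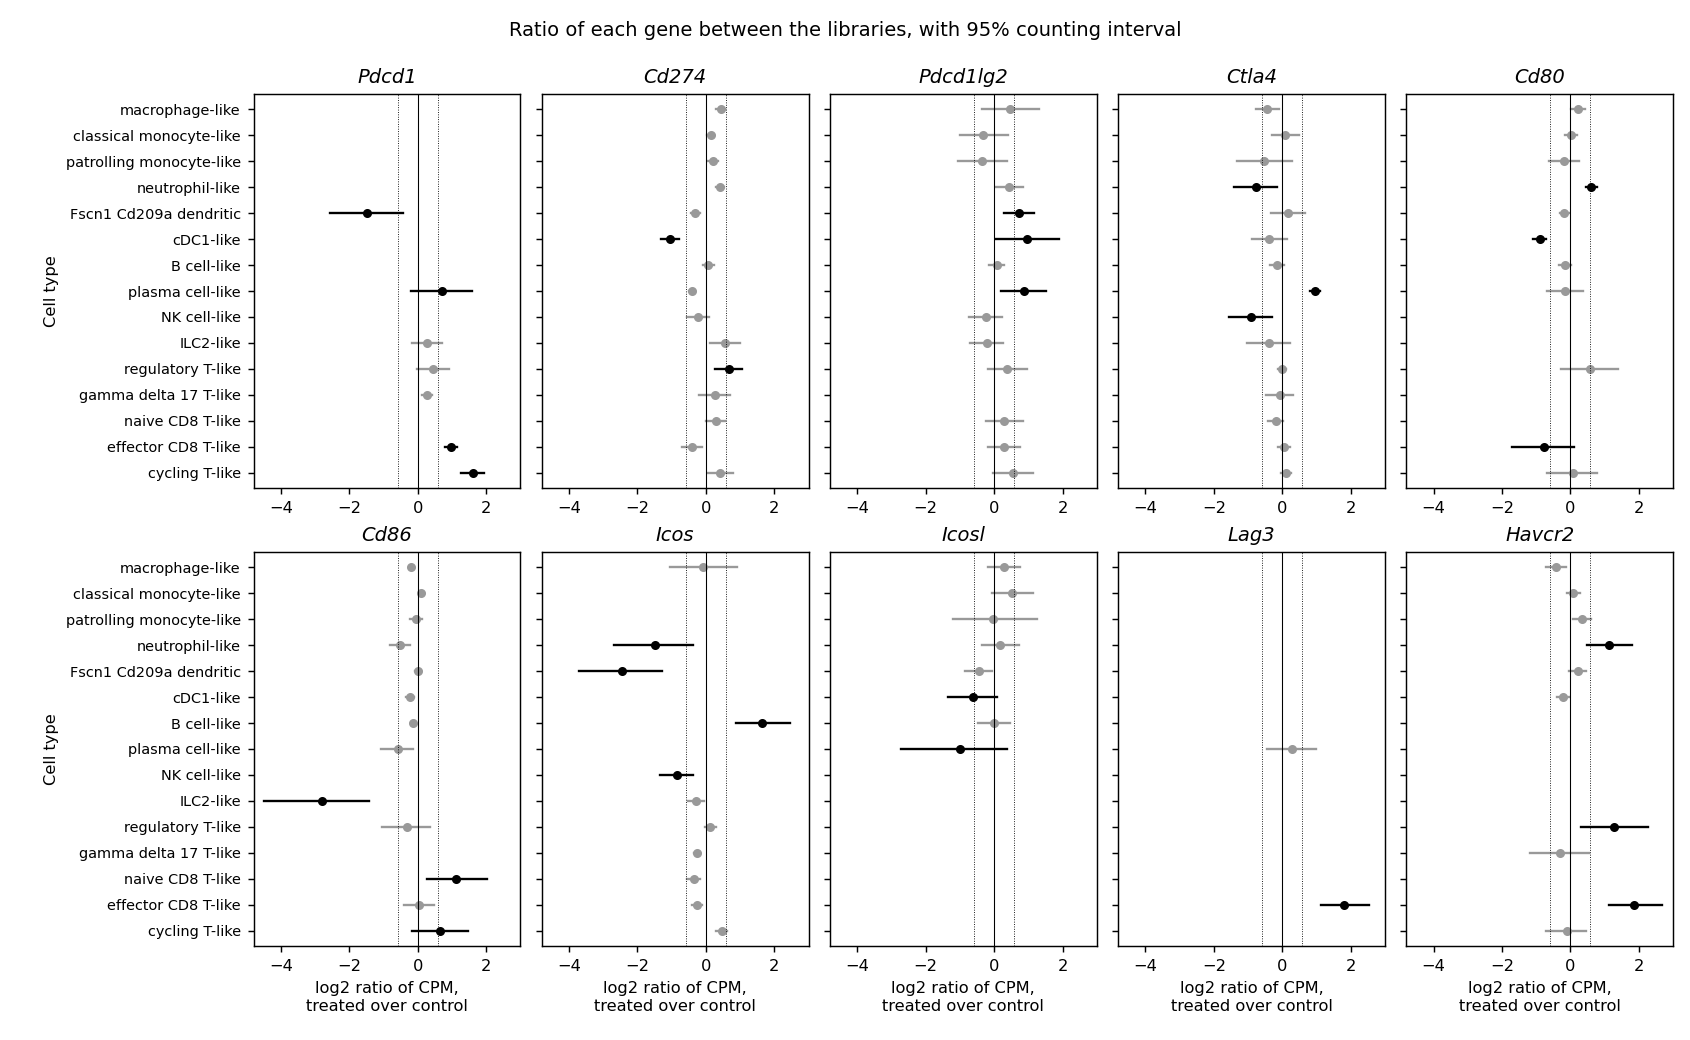
Log2 ratio of CPM, the treated-labelled library over the control-labelled library (horizontal axes), for each gene in each cell type (vertical axes) with at least 20 UMIs in 1 library; bars are exact 95% counting intervals, dotted lines mark 1.5-fold and black points lie past it. Of 106 points, 16 lie past 1.5-fold to the right and 12 to the left.

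A further 32 genes of checkpoint and costimulation pathways were listed with the 10. Over the same types, 224 of 480 pairs were measured, 27 higher and 25 lower past 1.5-fold, against the same background of 13.5%, with a median log2 ratio of 0.05. In effector CD8 T-like cells 4 of 19 measured genes were higher and 1 lower, where 11.6% of all genes were past 1.5-fold. Cd200r1, an inhibitory receptor for CD200, had 28.7 CPM (treated) against 7.40 CPM (control), Cd160, a receptor of cytotoxic lymphocytes, 45.6 CPM (treated) against 16.6 CPM (control), and Tox, a transcription factor of exhausted T cells, 811 CPM (treated) against 530 CPM (control). Tnfsf4, the OX40 ligand gene, had 28.7 CPM (treated) against 15.7 CPM (control). Btla, another inhibitory receptor, was lower there with 13.6 CPM (treated) against 24.97 CPM (control). These values pool sub-clusters 12 and 10, whose shares differed between the libraries, and the part of this mix in them was not tested. In sub-cluster 10 alone, 2 of 18 measured genes were higher and 1 lower, where 11.1% of all genes were past 1.5-fold. In cDC1-like cells 4 of 11 measured genes were lower and 1 higher, where 12.6% of all genes were past 1.5-fold. The lower ones were Tnfsf9, the ligand of 4-1BB, with 30.05 CPM (treated) against 66.5 CPM (control), Cd40, the receptor for CD40 ligand, with 21.2 CPM (treated) against 42.5 CPM (control), Pvr, a ligand of TIGIT and CD226, with 39.4 CPM (treated) against 74.3 CPM (control), and Cd226 with 61.4 CPM (treated) against 96.5 CPM (control). The higher one was Cd244a, a receptor for CD48, with 28.8 CPM (treated) against 14.98 CPM (control), and Cd226, past 1.5-fold by less than the others, was named after its value was seen. In macrophage-like cells only Cd226 of 15 measured genes was past 1.5-fold, against 10.1% of all genes, with 54.2 CPM (treated) against 28.5 CPM (control).

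The genes whose levels across the 15 types were most like those of the 10 were ranked by Pearson r of log2(CPM + 1) among 9168 genes, as a description of types that share depth and free RNA. For Icos they were Camk4, Acsbg1 and Zap70 (r 0.99, 0.99 and 0.98), and for Cd86 they were Cd40, Ciita and Gm49662 (0.94, 0.93 and 0.93). Izumo1r led for Ctla4 (0.92), Zdhhc2 for Pdcd1 (0.93), Ucp2 for Havcr2 (0.91), Alcam for Cd80 (0.89) and Rogdi for Icosl (0.94). Cd274 (Ly6i, 0.81) and Pdcd1lg2 (Fam107b, 0.87) had lower best values. Among the 10 genes themselves the highest values were those of Pdcd1 with Icos (0.90) and Cd80 with Cd86 (0.85).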

How the data were processed

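The deposited values are UMI counts per gene and barcode in 2 matrices, 1 per library. The submitters' processing notes list Seurat 4.4.0, Cell Ranger 3.1.0 and build mm10, whereas Cell Ranger 7.2.0 stands in the file headers, and the use of strand or introns in counting is not stated there. Barcodes with at least 500 detected genes and at most 15% mitochondrial UMIs were kept (12466 treated, 12038 control), and Scrublet calls (684 and 533 barcodes, over all barcodes) were left out. Cells were clustered with scanpy 1.11.5 and leidenalg 0.10.2 (2000 variable genes without the 10 genes, 30 components, 15 neighbours, resolution 1). A cluster was named from at least 3 markers of a list among its top 100 genes, and sub-clusters led by another lineage (660 and 628 cells) were set aside.

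UMIs were summed per library and type and divided by the total as CPM, with exact Poisson 95% intervals, Clopper-Pearson intervals for shares and exact conditional binomial intervals for ratios (scipy 1.17.1). These cover counting error only. The ratio code was tested on simulated data. With 1 library per group no test was made. Named were the 10 genes, up to 4 pathway genes a type with the largest ratios, the pathway gene with the highest level there (Tox in effector CD8 T-like cells), and the 3 genes most alike (in the text all 3 for Icos and Cd86 and the first for the others; that for Lag3 is not reported here). The genes, lists and rules were chosen with earlier results of these data known.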

Additional observations from a re-analysis of the deposited data

Results flagged for a closer look

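Of the 10 genes, 6 were past 1.5-fold in opposite directions in 2 cell types, and none of these differences between types was tested. The values are log2 ratios of CPM, treated-labelled over control-labelled library. Cd274 stood at 0.67 in regulatory T-like cells and -1.05 in cDC1-like cells, and Cd80 at 0.61 in neutrophil-like cells and -0.90 in cDC1-like cells. Ctla4 stood at 0.95 in plasma cell-like cells and -0.92 in NK cell-like cells. Pdcd1 stood at 1.61 in cycling T-like cells and -1.48 in the dendritic cells led by Fscn1 and Cd209a, where it was at 3.82 CPM (treated) and 10.7 CPM (control). Icos stood at 1.64 in B cell-like cells and -2.44 in the same dendritic cells, with under 20 CPM in each library in both types, and at -0.20 in these dendritic cells when sub-clusters led by another lineage were kept. Their migratory DC-like sub-cluster had Icos at 2.45 CPM (treated) and 69.3 CPM (control) and Pdcd1 at 0 CPM (treated) and 31.5 CPM (control). In the control-labelled library it held 0.179% of Icos UMIs and 0.476% of Pdcd1 UMIs. These dendritic cells together held 0.203% and 0.952%. Cd86 stood at 1.13 in naive CD8 T-like cells, where it was at 11.3 CPM (treated) and 5.18 CPM (control). It stood at -2.79 in ILC2-like cells, where 11 of the 37 UMIs of the control-labelled library came from 1 cell, and at -0.27 there with doublet calls kept.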

How the results depend on the processing

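Of 1126 ratios recomputed under 11 alternatives, 1049 stayed within counting error of the reported value, 72 moved and 5 reversed. With sub-clusters given the same weights, 9 pairs were past 1.5-fold higher and 7 lower of 79 that could be computed, and with no minimum beyond 1 UMI in each library 24 were higher and 20 lower of 138. Reversed were Icos in neutrophil-like cells (0.39) and Cd86 in cycling T-like cells (-0.15) with a minimum of 1000 genes, Icos in B cell-like cells (-1.20) and Cd86 in cycling T-like cells (-1.25) with doublet calls kept, and Pdcd1 in the dendritic cells led by Fscn1 and Cd209a (0.17) with sub-clusters led by another lineage kept, an alternative chosen after seeing the data, under which Icos in these cells was at -0.20. Cd86 in ILC2-like cells was at -0.27 with doublet calls kept, and Icos in NK cell-like cells at -0.52 with equal weights. Cd86 was highest in B cell-like cells, not in the dendritic cells led by Fscn1 and Cd209a, at clustering resolution 2 and without immunoglobulin, haemoglobin and mitochondrial genes in the total. Spearman's rho shared 11 of the 30 most alike genes. The cause was not tested. Thinning moved 18 of 20 shares and 7 of 10 co-detections. Depth limits Lag3 and Icosl most, with under 1000 UMIs in each library. No paired analysis was possible because the labels carry no replicate numbers and each group is 1 library.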
